A study of Papio anubis with 40 samples.

Results

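The miR-320 family was followed in the plasma of 8 olive baboons (Papio anubis) over 5 time points: month 0, before endometriosis was induced, and months 3, 6, 9 and 15 after menstrual tissue was placed in the peritoneal cavity by laparoscopy. Small RNA was sequenced from 0.5 mL of plasma per library, 8 libraries a month and 40 in all, and all animals are labelled as having received no treatment. All 8 animals were inoculated and no uninoculated animal was analysed here, so time since inoculation cannot be told apart from the passing of time. The labels used here give no age or strain.

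Members were the rows of the table of microRNA counts that have miR-320 at the start of the human name, once its species prefix is taken off. This took 6 of 2731 rows, of which 4 had any count, among 689 rows with a count in the whole table. The family itself has 1 row with counts, which joins 5 names (miR-320a-3p, miR-320b, miR-320c, miR-320d and miR-320e). The other 3 rows with counts were miR-3200-3p, miR-3200-5p and miR-3202, different microRNAs that share only the first digits of the name. The joined row cannot be divided between its names, so a shift from one of them to another could not be seen. Which genes of the family the baboon carries is not answered by the table.

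Most microRNA precursors are cut out of a longer transcript by the nuclease Drosha. The precursor of miR-320 is known, mainly from mouse and human cells, for skipping that step: it begins at its own transcription start, carries a 7-methylguanosine cap, leaves the nucleus through exportin-1 and is then cut by Dicer. The capped 5p strand is poorly loaded into Argonaute, and the 3p strand is the one that accumulates. The family is found in human plasma, platelets and red blood cells.

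The row of the 5p arm of miR-320a had no counts, while the joined row had many. The joined row, which holds the 3p arm of miR-320a, had 1008882 counts over the 40 libraries. The row of miR-320a-5p had 0 counts in all 40. A count of 0 allows up to 3 counts, which would be 0.000297% of the counts of the joined row. That limit covers counting error only. The joined row also holds miR-320b to miR-320e, so it is not a ratio of the arms of miR-320a. Whether a capped 5p strand can take up the ligated adapters was not tested.

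The joined row was among the most abundant microRNAs of baboon plasma. It had 7079 to 64964 counts per library (median 22932) and 14087 ± 3433 CPM (mean and SD over 40 libraries, which share 8 animals). CPM are counts scaled to a common library size, here with TMM factors, which are set from the bulk of the microRNAs. By mean CPM it was the 14th of 318 microRNA rows tested, and its place in single libraries ran from 8 to 20. Its share of all counts ran from 0.750% (95% exact Clopper-Pearson interval 0.741 to 0.759%) in the month 9 library of PA8001 to 2.02% (2.00 to 2.04%) in the month 0 library of PA8912. These intervals cover counting error only and take counts as independent.

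The 3 namesakes were rare. miR-3200-5p had 164 counts in all, spread over 24 libraries, with at most 20 in one. miR-3202 had 77 counts in 9 libraries and miR-3200-3p had 49 counts in 6. None of them had enough counts to be tested, and miR-3201 had none.

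Before inoculation the family row had a lowest level of 10723 CPM, a median of 13649 CPM and a highest level of 24892 CPM, with a mean of 14729 ± 4321 CPM (SD, n = 8). At month 3 the lowest, median and highest levels were 10453, 15216 and 20215 CPM, with a mean of 15330 ± 3450 CPM. At month 6 they were 7310, 13493 and 20512 CPM, with a mean of 13209 ± 4015 CPM. The groups overlapped: the medians of all 3 months lay inside the range of each. At month 9 they were 11126, 14408 and 20933 CPM, with a mean of 14981 ± 2945 CPM. At month 15 they were 9560, 12699 and 13707 CPM, with a mean of 12183 ± 1453 CPM. The highest library of month 15 lay near the median of month 0, and the lowest of month 15 lay below every library of month 0.

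**Figure D1:**
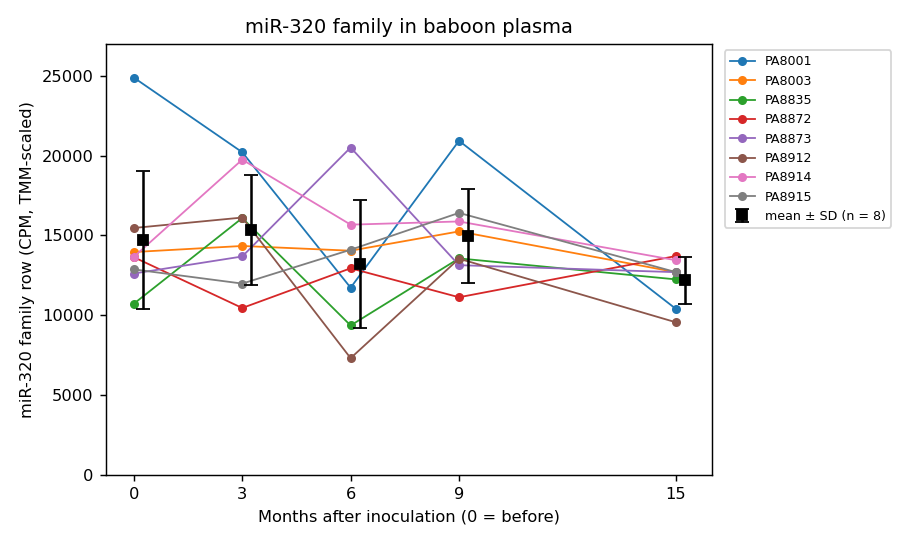
Level of the miR-320 family row in each library, in CPM after TMM scaling, against months after inoculation, with 1 line per baboon and black squares for the mean ± SD of 8 baboons. PA8001 starts at 24892 CPM and ends at 10403 CPM, while the 8 libraries of month 15 lie between 9560 and 13707 CPM.

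No change of the family row passed at any time point. At month 15 it was 0.84-fold the level of month 0 (log2 -0.25, SE 0.169, 95% interval -0.59 to 0.10, adjusted p = 0.557 by the quasi-likelihood test of edgeR, paired by baboon) and lower in 5 of 8 baboons. Of the 318 rows tested, 4.09% passed in that comparison (13 rows), and 88 had a smaller p than the family row. At month 6 the log2 change was -0.15 (SE 0.169, interval -0.50 to 0.19, adjusted p = 0.990), with 4 baboons lower and 4 higher. As folds, the intervals ran from 0.66 to 1.07 at month 15 and from 0.71 to 1.14 at month 6. Both estimates were further below 0 under every other scaling tried. At month 15 the log2 change was -0.35 by DESeq2 size factors and -0.33 by library totals. By upper quartiles it was -0.39 (unadjusted p = 0.0394, adjusted p = 0.485 by edgeR). At month 6 it was -0.22 by DESeq2 size factors, -0.26 by upper quartiles and -0.30 by library totals. Without the month 15 library of PA8872 the changes at months 15 and 6 were -0.38 and -0.23. Without the month 9 library of PA8001 month 6 had -0.23. With only the 2 months in the fit the changes at months 15 and 6 were -0.38 and -0.24.

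At months 3 and 9 the row lay closer to its first level on the TMM scale. The log2 change was 0.07 at month 3 (SE 0.168, interval -0.28 to 0.41, edgeR adjusted p = 1.00) and 0.03 at month 9 (SE 0.168, interval -0.31 to 0.37, adjusted p = 1.00), and 5 of 8 baboons were higher each time. Both signs turned with other scalings. They were -0.0089 and -0.0071 when DESeq2 size factors were used, and -0.12 and -0.32 with no factors beyond the library totals. By library totals month 9 was thus no closer to month 0 than month 6 (-0.30), and about as far as month 15 (-0.33). By edgeR 0% of rows passed at months 3, 6 and 9, where 5, 11 and 11 rows had an unadjusted p under 0.05. DESeq2 and limma-voom did not call the family row at any month either.

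The row did not pass in tests over several months either. With the 4 later months tested together the edgeR adjusted p was 0.994, where 0.943% of rows passed. The mean of months 3 to 15 differed from month 0 by log2 -0.08 (SE 0.133, interval -0.35 to 0.19, adjusted p = 0.986), where 0.314% of rows passed. That difference was -0.15 when scaled by DESeq2 size factors, -0.21 by upper quartiles and -0.27 by library totals (unadjusted p = 0.0501, adjusted p = 0.736 by edgeR). Months 9 and 15 differed from months 3 and 6 by -0.06 (SE 0.119, interval -0.31 to 0.18, adjusted p = 0.985), where 0% passed and 16 rows had an unadjusted p under 0.05; by upper quartiles the difference was -0.14. Over all 318 rows the median log2 change was 0.08 at month 3 and 0.10 at month 6. It was 0.05 at month 9 and 0.11 at month 15. On the TMM scale the change of the family row at month 15 thus lay further from that median than from no change. The median at month 15 was 0.00090 by DESeq2 size factors, -0.0079 by upper quartiles and 0.041 by library totals.

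**Figure D2:**
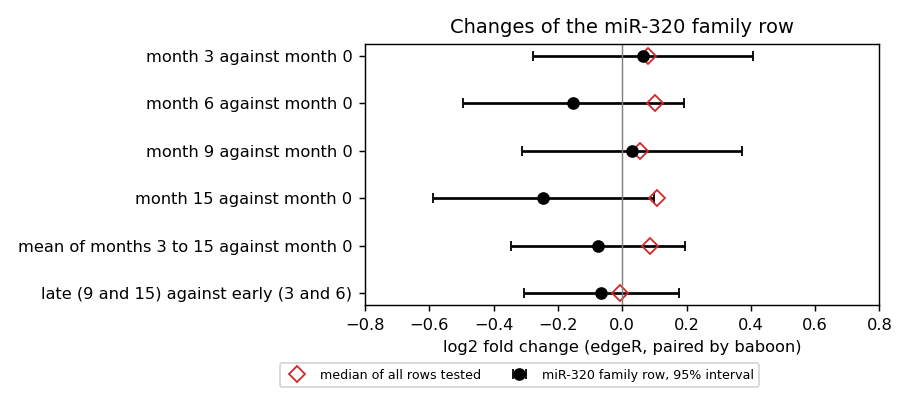
Log2 fold change of the miR-320 family row (black points) with its 95% interval in 6 comparisons of edgeR, paired by baboon, and the median of all 318 rows tested (red diamonds). All 6 intervals of the family row include 0, and the lowest estimate is -0.25 at month 15.

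Ordered by mean log2 CPM on the TMM scale, the months ran from month 3 (13.87) and month 9 (13.85) to month 0 (13.80). Month 6 (13.63) and month 15 (13.56) followed. No neighbours in that order differed beyond their spread. By the exact sign-flip permutation test, two-sided and with 8 baboons a pair, month 9 differed from month 3 by -0.02 ± 0.253 (SD of paired differences, adjusted p = 0.789), month 9 from month 0 by 0.04 ± 0.260 (adjusted p = 0.712), month 6 from month 0 by -0.17 ± 0.621 (adjusted p = 0.677) and month 15 from month 6 by -0.07 ± 0.353 (adjusted p = 0.712). The smallest p among all 10 pairs of months was that of month 15 against month 9, where 7 of 8 baboons were lower (-0.29 ± 0.378, exact p = 0.0625, adjusted p = 0.430). With 8 baboons the smallest p this test can give is 0.0078. The order and the tests hold for the TMM scale only. By library totals the mean was 16199 CPM at month 0, 14807 at month 3 and 13349 at month 6. It was 13050 CPM at month 9 and 13068 at month 15, so that month 0 came first and month 9 last.

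The animals differed in how far the family row moved. PA8001 had 24892 CPM at month 0, 20215 at month 3, 11725 at month 6, 20933 at month 9 and 10403 at month 15, a 2.39-fold range. PA8912 had 15469, 16122, 7310, 13544 and 9560 CPM at the same months, a 2.21-fold range with its lowest level at month 6. PA8003 kept within a 1.20-fold range, at 13961, 14341, 14044, 15253 and 12699 CPM. These sequences show no common course: months 6 and 15 were low in PA8001 and PA8912, while PA8873 had its highest level, 20512 CPM, at month 6.

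The estimate at month 15 rested in large part on those same animals. PA8001 had fallen to 0.42-fold and PA8912 to 0.62-fold of their levels at month 0, and the other 6 lay between 0.91-fold and 1.14-fold. Without PA8001 the log2 change at month 15 was -0.12, and without PA8912 it was -0.16. Leaving out PA8873 or PA8914 moved it the other way, to -0.39 and -0.42, and neither passed (edgeR adjusted p = 0.544 and 0.500). At month 6 it was -0.073 without PA8001 and -0.32 without PA8873. The month 0 library of PA8001 also had the highest CPM of its month, and 52.9% of its counts were miR-122-5p, which hepatocytes make in large amounts. As a share of all counts, with miR-122-5p included, the family row had 1.90% in that library, second to PA8912 at 2.02%. The month 6 library of the same animal had nearly the same share of miR-122-5p, 51.0%, at 11725 CPM of the family row, and its month 9 library had 78.6% at 20933 CPM. With miR-122-5p taken out of the counts the log2 change of the family row was -0.33 at month 15 (edgeR adjusted p = 0.527). At month 6 it was then -0.22 (edgeR adjusted p = 0.998). Beyond that refit, the part of miR-122-5p in these levels was not tested.

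Markers of blood cells and of hepatocytes were counted beside the family. All 7 of 7 microRNAs of the erythrocyte list had counts, and their summed level ran from 195072 to 543490 CPM at month 0 and from 95969 to 653815 CPM at month 15. All 6 of 6 of the platelet list had counts, with 61851 to 118885 CPM at month 0 and 73940 to 177144 CPM at month 15. All 5 of 5 of the hepatocyte list had counts, with 8023 to 694674 CPM at month 0 and 3319 to 219678 CPM at month 15. Nearly all of that was miR-122-5p, which alone had 7957 to 694211 CPM at month 0 and 3305 to 219469 CPM at month 15. All 4 of 4 of the lymphocyte list had counts, with 1013 to 5410 CPM at month 0 and 628 to 2030 CPM at month 15. The haemolysis index (log2 CPM of miR-451a minus that of miR-23a-3p/23b-3p) averaged 0.011 ± 1.06 at month 0 and -0.82 ± 1.47 at month 15 (SD, n = 8). With that index as a covariate the log2 change of the family row at month 15 was again -0.25 (edgeR adjusted p = 0.622). In plasma, fewer cells or vesicles that carry a microRNA and less of it in each cannot be told apart.

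Over all libraries the family row was among the steadiest of the abundant microRNAs. Its log2 CPM had an SD of 0.339 over the 40 libraries, and its lowest and highest libraries differed 3.41-fold. The median SD was 0.910 over the 318 rows and 0.547 over the 50 rows with the highest mean CPM. Counted from the smallest SD the family row came 7th of 318 and 3rd of those 50, after miR-425-3p (0.328) and miR-185-5p (0.331). The place depended on the scaling. By DESeq2 size factors it was 21st of 318 and 9th of 50 (SD 0.385). By upper quartiles it was 9th and 3rd (SD 0.369), and by library totals 2nd and 1st (SD 0.353). These places are a description with no test.

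**Figure D3:**
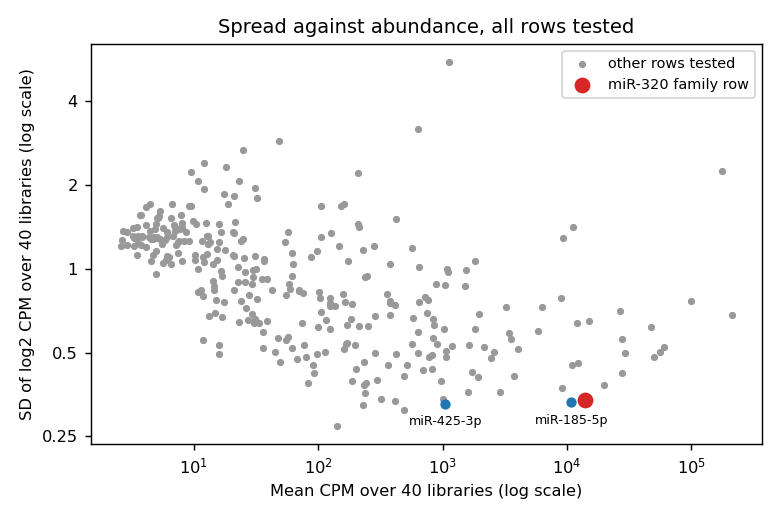
SD of log2 CPM over the 40 libraries against mean CPM, both on log axes, for the 318 rows tested, with the miR-320 family row in red and miR-425-3p and miR-185-5p in blue. The family row lies at the lower edge of the cloud, with an SD of 0.339 at a mean of 14087 CPM.

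Of the spread of its log2 CPM, 13.7% lay between months, 23.8% between baboons and 62.5% in neither. The medians over all 318 rows were 7.38% between months and 31.7% between baboons. The share between months was larger than in 257 of the other rows, and the share between baboons larger than in 81.

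The microRNA whose level was most like that of the family was miR-423-5p, which had 15062 ± 6481 CPM (SD over 40 libraries), near the level of the family row. Pearson's r of log2 CPM over the 40 libraries was 0.79, and 0.87 after the mean of each baboon was taken out. Without the month 6 library of PA8912, the lowest of both rows, the latter was 0.86. The other arm of the same precursor, miR-423-3p, came next but one with r of 0.62 (0.72 within baboons). miR-6858-5p (0.69), miR-664a-5p (0.60) and miR-483-5p (0.57), the last from an intron of IGF2, make up the 5 most alike. Of these miR-6858-5p was rare, with a mean of 25.3 CPM and 1568 counts over the 40 libraries. The median r over all other rows was -0.056. The libraries share 8 animals and a common scale, so these values carry no p. With library totals alone miR-423-3p had the highest r (0.70), miR-423-5p had 0.58, miR-6858-5p 0.29 and miR-483-5p 0.087. On that scale miR-423-5p came 9th, miR-664a-5p 15th, miR-6858-5p 117th and miR-483-5p 239th of 317 rows.

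Other microRNAs listed as made without Drosha were set beside the family. The list held miR-484, whose precursor is also capped, and mirtrons and mirtron-like microRNAs. Mirtrons are short introns whose splicing replaces the cut by Drosha. Whether each listed microRNA is made in that way was not tested. Of the 23 names in the list 6 had a count and 5 were tested. miR-484 had 381 ± 194 CPM and miR-877-5p, from an intron of ABCF1, had 185 ± 104 CPM (mean and SD over 40 libraries), so both were far rarer than the family row. miR-1226-3p, from an intron of DHX30, had 456 counts in 24 libraries, miR-877-3p had 307 in 19 and miR-1224-5p had 290 in 16. miR-1225-5p had 18 counts in 5 libraries and was not tested.

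None of the 5 passed in any of the 7 comparisons by edgeR. The smallest p belonged to miR-877-3p, which was at 0 in 7 of 8 libraries at month 0 and in 2 of 8 at month 3 (unadjusted p = 0.0203, adjusted p = 1.00), and with 13 counts in all at month 0 its fold is poorly set. The median log2 change of the 5 was furthest from that of all 318 rows at month 6, at 0.73 with 5 above 0, against 0.10. By DESeq2 size factors, upper quartiles and library totals it was 0.64, 0.46 and 0.62, with 4, 3 and 3 above 0. At month 0 miR-877-3p, miR-1224-5p and miR-1226-3p were at 0 in 7, 6 and 5 of 8 libraries, so this median is poorly set. At months 3 and 9 it was 0.24 and 0.08, against 0.08 and 0.05. At month 15 the median log2 change of the 5 was 0.14, with 3 above 0, against 0.11 for all 318 rows. Scaled by DESeq2 size factors it was 0.011, by upper quartiles -0.035 and by library totals 0.11.

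The capped miR-484 and the mirtron product miR-877-5p were each set against the family library by library. Within baboons miR-877-5p followed the family row with r of 0.67 (4th of 317 rows, and 0.61 without the month 6 library of PA8912), and over the 40 libraries with r of 0.55. For miR-484 the values were -0.0045 and -0.26. The order over the 40 libraries depended on the scaling: by library totals r was 0.47 for miR-484 and 0.38 for miR-877-5p. miR-484 had 376 ± 281 CPM at month 0 and 384 ± 173 CPM at month 15, and miR-877-5p had 172 ± 72.4 and 171 ± 79.4 CPM (SD, n = 8). These correlations are descriptions with no test of their difference.

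**Figure D4:**
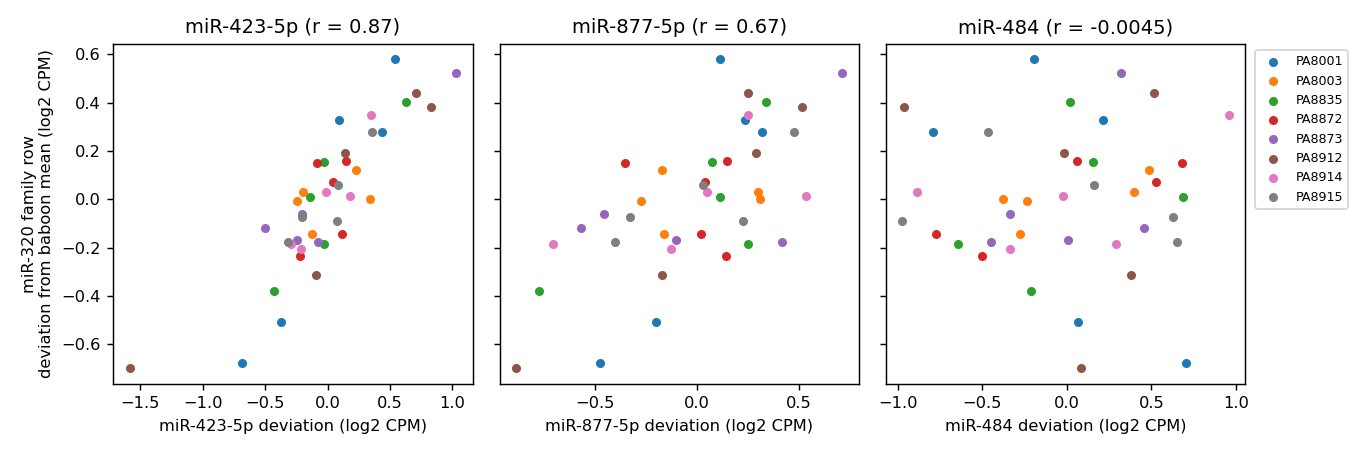
Deviation of the miR-320 family row from the mean of its baboon in log2 CPM, against the same deviation of miR-423-5p, miR-877-5p and miR-484, with 1 point per library coloured by baboon. Points rise together for miR-423-5p (r = 0.87) and miR-877-5p (r = 0.67) and show no trend for miR-484 (r = -0.0045) on the TMM scale; over the 40 libraries, by library totals, r was 0.38 for miR-877-5p and 0.47 for miR-484.

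The relations between animals were added after the values were seen, so adjustment over 4 relations does not cover the choice of measures. Between animals, the mean level of the family row was set against 4 other measures. Over the 8 baboon means it fell with miR-451a, the red cell microRNA that skips Dicer (r = -0.93, exact permutation p = 0.00102, adjusted p = 0.00407 over 4 relations, and Spearman's rho -0.93, exact p = 0.00223, adjusted p = 0.00893). Without PA8001 and PA8912, the baboons farthest from the median of miR-451a, r was -0.84, and within baboons it was -0.27. It rose with miR-122-5p (r = 0.81, exact p = 0.0159, adjusted p = 0.0318, rho 0.71, exact p = 0.0576, adjusted p = 0.115). Without PA8001 and PA8872 r was 0.59, and within baboons it was 0.37. Both relations depended on the scaling: with library totals alone r was 0.75 for miR-451a and -0.53 for miR-122-5p, neither passing after adjustment, and with upper-quartile factors r was -0.63 and 0.48, neither passing (exact adjusted p = 0.387 and 0.460). Without PA8001 the adjusted p was 0.0579 for miR-451a and 0.235 for miR-122-5p by the exact test, and without PA8872 or PA8912 that of miR-122-5p was 0.0786 and 0.0861. The haemolysis index (r = -0.15, rho -0.17, r without PA8835 and PA8914 -0.34, within baboons 0.099) and log2 total count (r = 0.20, rho 0.19, r without PA8912 and PA8914 0.75, within baboons -0.037) did not pass (exact p = 0.716 and 0.633, adjusted p = 0.716 for both, and for rho exact p = 0.703 and 0.665, adjusted p = 0.703 for both).

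**Figure D5:**
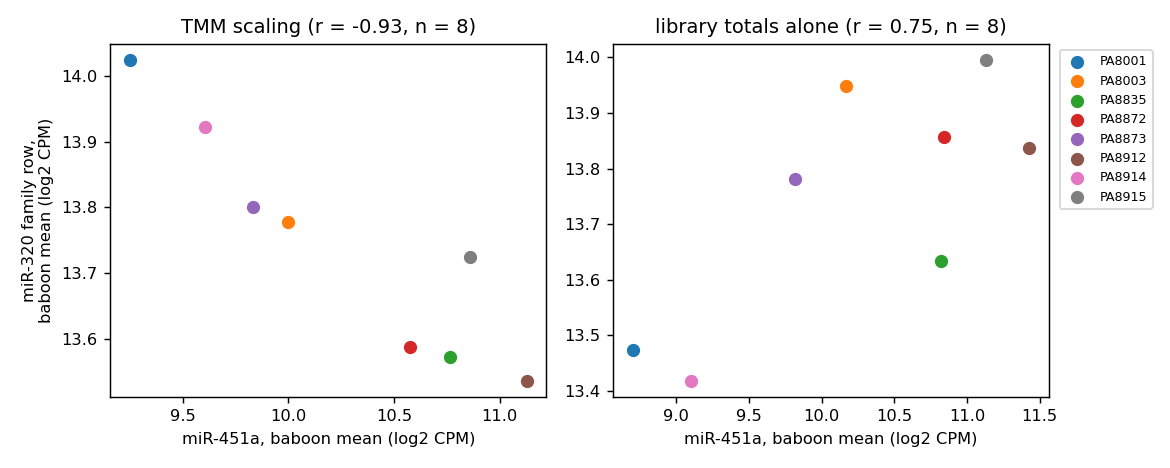
Mean log2 CPM of the miR-320 family row against that of miR-451a, with 1 point per baboon (mean of 5 libraries), after TMM scaling on the left and with library totals alone on the right. The points fall from left to right with TMM (r = -0.93) and rise with library totals (r = 0.75).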

How the data were processed

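Per the labels' protocols, RNA was extracted from plasma, adapters were ligated to microRNA ends, cDNA synthesis added molecular identifiers, and sequencing was on an Illumina NovaSeq X. The series text speaks of serum. The deposited values are whole-number counts per microRNA name, not normalized. R 4.5.0, edgeR and limma are named per the submitters' processing notes; whether identifiers or reads were counted, and with which aligner and microRNA database, is not given in the sources used here. No sequence or coordinates came with the rows, so none are printed.

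Libraries held 696873 to 5824111 counts (median 1629264.5). Rows were kept with filterByExpr by month (minimum count 10, minimum total 15), which left 318 of 2731 with 99.98% of counts. The whole table was fitted once in edgeR 4.0.16 (TMM, quasi-likelihood, month and baboon as terms; R 4.3.3), with Benjamini-Hochberg adjustment over all 318 rows at 0.05, two-sided. Log2 CPM use a prior count of 2. DESeq2 1.42.0, limma-voom (limma 3.58.1) and other settings were alternatives. A count of 0 allows 3 counts, or 0.374 to 3.97 CPM depending on the library. None of 780 pairs of libraries was identical.

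The baboon number in the labels pairs libraries of the same animal. Deviations from month means correlated at 0.208 on average between libraries of a baboon and at -0.051 between baboons, across microRNAs. The members, lists and alternatives were chosen with earlier results of these data known, and the tests of all month pairs and of baboon means were added after the values were seen. Named outside the family were the 5 rows with the highest r with it and up to 4 listed Drosha-independent microRNAs by mean CPM; miR-1225-5p and miR-877-3p are named to account for the list, and miR-425-3p, miR-185-5p, miR-451a and miR-122-5p after their values were seen. A planned test of ratios between members could not be run, because the table joins them in 1 row.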

Additional observations from a re-analysis of the deposited data

Results flagged for a closer look

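In groups of 8 libraries a single library stood apart from the other 7 in 3 of 20 cases, covering 4 microRNA rows at 5 months. For normal values chance flags about 1 in 20 independent groups. These groups share 8 animals and a common scale, so 3 of 20 was not tested against that rate. The miR-320 family row at month 0 was highest in PA8001, at 24892 CPM, with the next library at 15469 CPM. As a share of all counts that library came second, at 1.90% against 2.02% in PA8912. miR-484 at month 9 was lowest in PA8914, at 78.4 CPM, with the next library at 315 CPM. miR-877-5p at month 3 was highest in PA8914, at 444 CPM, with the next library at 196 CPM.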

How the results depend on the processing

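The family row was not called under any of 22 alternatives in the comparisons that each could give, with adjusted p of 0.433 or more, and the number of members called stayed 0. At month 3 its log2 change of 0.07 turned to -0.0089 with DESeq2 size factors, -0.0089 with DESeq2 itself, -0.021 with upper-quartile factors, -0.12 with library totals alone, -0.052 with a mean count of at least 50, -0.016 without the month 15 library of PA8872 and -0.020 with the 2 months compared alone. At month 9 the change of 0.03 turned to -0.0071 with DESeq2 size factors, -0.0071 with DESeq2 itself, -0.17 with upper-quartile factors, -0.32 with library totals alone, -0.023 with no low-count filter, -0.0062 with a mean count of at least 50, -0.020 with miR-122-5p taken out and -0.0084 without the month 9 library of PA8001. Leaving out 1 baboon at a time gave -0.071 to 0.12 at month 3, -0.32 to -0.073 at month 6, -0.019 to 0.077 at month 9, -0.42 to -0.12 at month 15, -0.17 to -0.017 for the mean of months 3 to 15 and -0.097 to 0.0076 for late against early. With no replicate block for the baboon the change at month 15 was -0.27 (edgeR adjusted p = 0.645), and no call changed. Over baboon means, r turned with upper-quartile factors to 0.32 for the haemolysis index and -0.070 for log2 total count, and with library totals alone to 0.75 for miR-451a, -0.53 for miR-122-5p and -0.35 for log2 total count. Leaving out 1 baboon gave -0.98 to -0.88 for miR-451a, 0.66 to 0.90 for miR-122-5p, -0.49 to 0.17 for the index and -0.053 to 0.71 for log2 total count. The cause of these shifts was not tested. Ratios between members could not be recomputed under other settings, as the members share 1 row. Depth did not limit the family row, which had at least 7079 counts in every library; it limits miR-3200-3p, miR-3200-5p, miR-3202 and the rarer listed microRNAs.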
